A study of Mus musculus with 7 samples.

Results

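The transcripts of the mouse mitochondrial genome were examined in RNA sequenced from sorted Bmi1-marked cells of the intestinal crypt. The members are all genes whose deposited name begins with mt-, which gave 37 of the 37310 genes in the counts table: 13 protein-coding genes, 2 rRNA genes and 22 tRNA genes. The 7 libraries came from mice fed NWD2 (2 libraries), NWD1 (3 libraries) or AIN76A (2 libraries), all described by the labels as highly purified diets, given from weaning up to an age of 3 months. The diets' composition is not given in the labels. Every mouse carried BmicreERT2 and Rosa26RFP, so every diet group had the Cre allele and the red reporter, and no group without them was used. Cells with strong red fluorescence that were Epcam+ and CD45- were collected in bulk. All libraries were labelled male except NWD1 replicate 2, labelled female. The labels do not say whether the libraries of a diet came from separate mice, so p-values measure the spread between these libraries, which may be technical.

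The mitochondrial genome is a small circle that is transcribed from both strands into long precursors. tRNAs lie between most of the other genes, and cutting at the tRNAs frees the mRNAs and rRNAs. The mRNAs encode core subunits of respiratory complexes I, III, IV and V, whose other subunits are encoded in the nucleus, as are all subunits of complex II and all proteins that copy, transcribe, process and translate the mitochondrial genome. In the crypt, mitochondrial respiration is known to differ between stem cells and their differentiated neighbours.

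The libraries held 71331627 and 77959407 counts on NWD2, 44260145, 65822352 and 14034315 on NWD1, and 58419160 and 39657707 on AIN76A. Bmi1, which drives the Cre of the reporter, was between 2.12 and 5.25 CPM (counts scaled to a common library total, here with TMM, edgeR's trimmed-mean scaling between libraries). Epcam ranged from 225 to 1338 CPM, with the lowest value in NWD2 replicate 2. The 6 epithelium markers, Epcam among them, did not follow it: they summed to 8851 CPM in NWD2 replicate 2 and to between 6571 and 10237 CPM in the other libraries. Ptprc, the gene of CD45, ranged from 1.17 to 5.75 CPM. The 6 leukocyte markers summed to 13.7 to 15.2 CPM on NWD2, 6.35 to 19.8 on NWD1 and 13.7 to 14.2 on AIN76A, with none at 0. Of these 6 markers 5 had log2 fold changes above 0 in NWD1 against AIN76A and 5 in NWD2 against AIN76A, with medians of 1.58 and 1.94, and none passed the test. The 6 enterocyte markers summed to 67124 CPM in NWD2 replicate 2 and to between 28950 and 47640 CPM in the other libraries. The 6 enteroendocrine markers summed to 441 to 615 CPM on NWD2, 1615 to 1885 on NWD1 and 1752 to 2154 on AIN76A, and the 6 tuft markers to 54.8 to 83.1 CPM on NWD2, 109 to 282 on NWD1 and 146 to 230.4 on AIN76A. The 6 Paneth markers summed to 10957 to 21569 CPM on NWD2, 14608 to 19953 on NWD1 and 27266 to 40080 on AIN76A, and the 6 goblet markers to 4994 to 8077 CPM on NWD2, 3672 to 8225 on NWD1 and 6677 to 12991 on AIN76A. None of these markers was at 0 in any library or passed the test, and the part of these cell types in the mitochondrial values was not tested. NWD2 replicate 2 also had the lowest TMM factor, 0.797 against 0.951 to 1.09 elsewhere, which raises its scaled values relative to its plain shares. NWD1 replicate 3 had the fewest counts, and its label is less certain: the deposited TPM table has a column headed as NWD2 replicate 3 and none for this library. In bulk RNA, fewer cells of a type and less RNA per cell cannot be told apart.

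Mitochondrial genes took between 1.44% and 2.33% of all counts, and the diets overlapped. The share was 2.33% and 1.61% on NWD2, 2.13%, 2.17% and 1.44% on NWD1, and 2.03% and 2.07% on AIN76A. The means were 1.97% ± 0.511 on NWD2, 1.91% ± 0.412 on NWD1 and 2.05% ± 0.0326 on AIN76A (SD, n = 2, 3 and 2 libraries). Both AIN76A libraries lay inside the range of the libraries on each of the other diets. The 3 classes of genes differed greatly in their part of this total. How well the preparation captured each class of RNA was not tested, so these are shares of counts and not of RNA. Protein-coding genes took 1.86% and 1.32% on NWD2, 1.75%, 1.83% and 1.17% on NWD1, and 1.51% and 1.73% on AIN76A. The 2 rRNA genes took 0.469% and 0.288% on NWD2, 0.383%, 0.332% and 0.260% on NWD1, and 0.515% and 0.342% on AIN76A. tRNA genes took between 0.00215% and 0.00449% in any library. After TMM scaling the mitochondrial sum was 22868 and 20207 CPM on NWD2, 19535, 20508 and 13386 CPM on NWD1, and 21310 and 19872 CPM on AIN76A. NWD1 replicate 3 was the lowest library on both scalings. NWD2 replicate 2 moved most between them, and each statement below that both NWD2 libraries lay above another diet in the CPM of a single mitochondrial gene holds on TMM-scaled values and not on plain shares. Of the 10 best counted members, 8 protein-coding genes and the 2 rRNAs, NWD1 replicate 3 had the lowest value for 9, on the plain share and on TMM-scaled CPM alike.

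**Figure D1:**
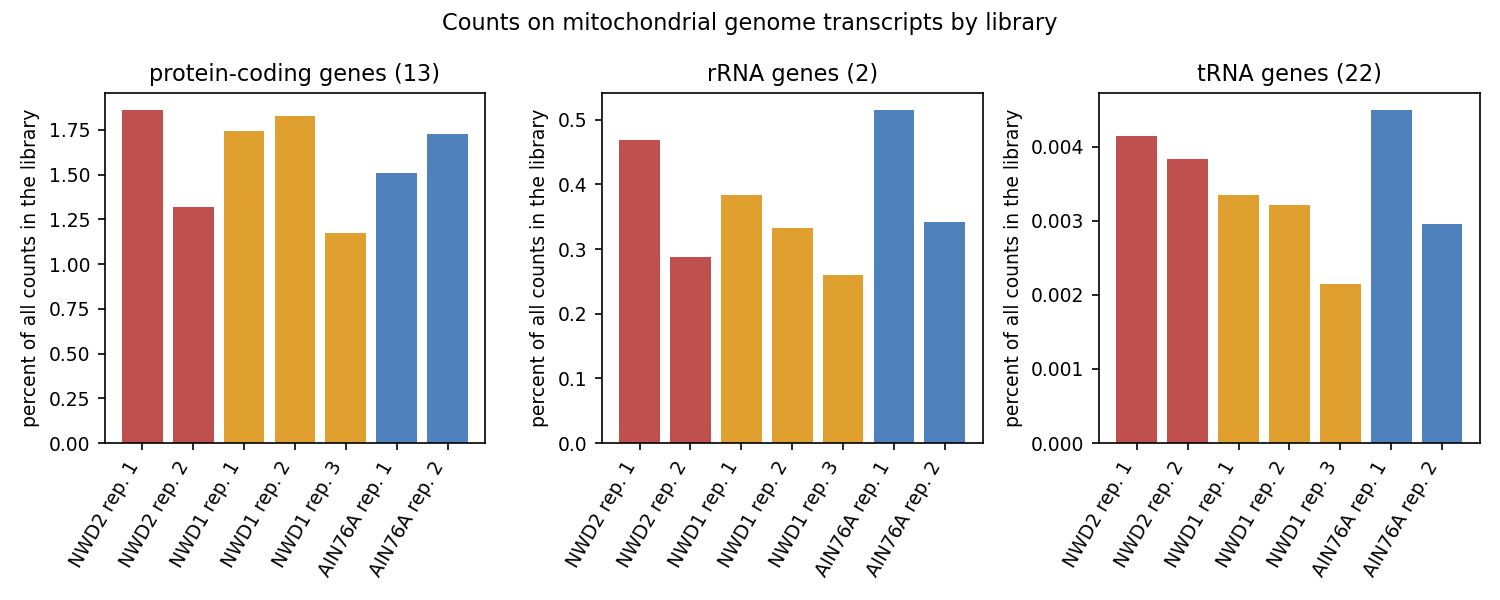
Percent of all counts in each library that fell on mitochondrial protein-coding, rRNA and tRNA genes, with 1 bar a library and colours for the diets; each panel has its own scale. Protein-coding shares ran from 1.17% in NWD1 replicate 3 to 1.86% in NWD2 replicate 1, and the diets overlapped in every panel except tRNA on NWD2 against NWD1, where both NWD2 libraries were higher.

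The rRNAs of the mitochondrial ribosome were highest in AIN76A replicate 1, and neither passed the test in any comparison. mt-Rnr1, the small-subunit rRNA, had 947 and 799 CPM on NWD2, 784, 640 and 506 CPM on NWD1, and 1398 and 631 CPM on AIN76A. mt-Rnr2, the large-subunit rRNA, had 3646 and 2809 CPM on NWD2, 2727, 2508 and 1920 CPM on NWD1, and 4018 and 2648 CPM on AIN76A. AIN76A replicate 1 thus stood above all other libraries for both, while AIN76A replicate 2 lay among the NWD1 libraries for mt-Rnr1. AIN76A replicate 1 also had the highest sums of Paneth and goblet markers, 40080 and 12991 CPM, whose part in the rRNA values was not tested. The rRNAs made up 25.4% of mitochondrial counts in AIN76A replicate 1 and between 15.4% and 20.1% in the other 6 libraries. In NWD1 against AIN76A, the edgeR quasi-likelihood test gave log2 fold changes of -0.66 (SE 0.37) for mt-Rnr1 and -0.48 (SE 0.33) for mt-Rnr2, each with adjusted p = 0.878. Without AIN76A replicate 1 the value of mt-Rnr1 was 0.02. In NWD2 against NWD1 they were 0.44 (SE 0.37) and 0.44 (SE 0.33), with adjusted p of 0.772 and 0.759, and both NWD2 libraries lay above all 3 NWD1 libraries. In NWD2 against AIN76A they were -0.22 (SE 0.41) and -0.05 (SE 0.36), both with adjusted p = 0.996.

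Among the mRNAs, levels per length were compared in TPM (a unit scaled to gene length and to a common total), which covers 6 libraries. mt-Cytb had the highest median, 8549 TPM over the 6 libraries, followed by mt-Nd1 with 7365 TPM and mt-Co1 with 5287 TPM. The ranges of mt-Cytb (6576 to 9335 TPM) and mt-Nd1 (5927 to 7685 TPM) overlapped, and mt-Co1 (3497 to 5983 TPM) reached just into that of mt-Nd1. mt-Nd2 (1926 TPM), mt-Nd4 (1529 TPM) and mt-Nd5 (1482 TPM) formed a middle group with overlapping ranges. mt-Nd6, the only mRNA read from the other strand, had a median of 941 TPM. The preparation does not mark strand, so reads of mt-Nd6 and of RNA from the opposite strand cannot be told apart. mt-Nd6 also overlaps mt-Nd5 by 14 bases. mt-Nd3 came far below the genes named so far, at 67.6 TPM with a range of 41.2 to 81.2. The last 5 protein-coding genes, mt-Atp6, mt-Co3, mt-Co2, mt-Atp8 and mt-Nd4l, had medians under 1 TPM. Some of these mRNAs, mt-Co1, mt-Nd4 and mt-Nd3 among them, share sequence with other annotated transcripts, as given below. How reads that match both were counted is not given, so the order in TPM may differ from that of the RNA levels.

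None of the 6 complex I subunits with at least 100 counts in every library passed the test in any comparison. Their log2 fold changes lay between -0.68 and 0.58, with SEs of 0.31 to 0.38. Whether their levels are alike on the 3 diets was not tested. Complex I takes electrons from NADH into the respiratory chain. mt-Nd1 had 3788 and 3771 CPM on NWD2, 3673, 3461 and 2427 CPM on NWD1, and 3554 and 3458 CPM on AIN76A. Both NWD2 libraries were above the libraries of each other diet for this gene, and its log2 fold change was 0.25 (SE 0.31) in NWD2 against NWD1 and 0.11 (SE 0.34) in NWD2 against AIN76A. mt-Nd5 had 1649 and 1428 CPM on NWD2, 1349, 1779 and 974 CPM on NWD1, and 1236 and 1347 CPM on AIN76A. It was higher in both NWD2 than in both AIN76A libraries, by 0.25 (SE 0.35) on the log2 scale. mt-Nd2 had 1165 and 891 CPM on NWD2, 1001, 1175 and 633 CPM on NWD1, and 1250 and 923 CPM on AIN76A. mt-Nd4 had 1259 and 1037 CPM on NWD2, 1008, 1180 and 659 CPM on NWD1, and 1376 and 991 CPM on AIN76A. For mt-Nd2 and mt-Nd4 the diets overlapped in every pair. mt-Nd6 had 268 and 214 CPM on NWD2, 237, 305 and 147 CPM on NWD1, and 314 and 221 CPM on AIN76A, again with overlap. mt-Nd3 had 14.8 and 11.3 CPM on NWD2, 11.9, 6.94 and 7.37 CPM on NWD1, and 16.4 and 11.6 CPM on AIN76A. Its fold changes were the largest of the 8 well-counted mRNAs, at -0.68 (SE 0.34) in NWD1 against AIN76A and 0.58 (SE 0.34) in NWD2 against NWD1, with edgeR adjusted p of 0.878 and 0.722.

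mt-Cytb, the only mitochondrial subunit of complex III, had 5302 and 4730 CPM on NWD2, 4748, 5166 and 3159 CPM on NWD1, and 4713 and 5007 CPM on AIN76A. Its diets overlapped, with log2 fold changes of -0.16 (SE 0.32) in NWD1 against AIN76A, 0.05 (SE 0.36) in NWD2 against AIN76A and 0.20 (SE 0.32) in NWD2 against NWD1. mt-Co1, the catalytic core of complex IV, had 4788 and 4468 CPM on NWD2, 3862, 4161 and 2933 CPM on NWD1, and 3385 and 4605 CPM on AIN76A. Both NWD2 libraries were above all NWD1 libraries for mt-Co1, by 0.34 (SE 0.31) on the log2 scale, while the AIN76A libraries spanned most of that range.

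The make-up of the mRNA pool, which does not depend on scaling against nuclear genes, overlapped between diets for most of the well-counted mRNAs. mt-Nd1 made up 21.8% ± 1.42 of protein-coding mitochondrial counts on NWD2 and 21.7% ± 1.55 on NWD1 (SD, n = 2 and 3), and 22.4% and 20.9% in the AIN76A libraries. mt-Co1 made up 26.6% ± 0.520 on NWD2, 25.0% ± 1.58 on NWD1 and 24.6% ± 4.55 on AIN76A. The wide AIN76A spread came from replicate 1 at 21.4% and replicate 2 at 27.8%, which were the lowest and the highest of all libraries. mt-Nd3 made up between 0.0400% and 0.103%. mt-Nd5 made up 9.05% and 8.63% on NWD2, 8.43%, 10.3% and 8.91% on NWD1, and 7.80% and 8.13% on AIN76A, so that its share was higher in every NWD2 and every NWD1 library than in both AIN76A libraries. mt-Cytb made up 29.1% and 28.6% on NWD2, 29.7%, 29.8% and 28.9% on NWD1, and 29.7% and 30.2% on AIN76A, and was lower in both NWD2 than in both AIN76A libraries. For mt-Nd1, mt-Nd2, mt-Nd3, mt-Nd4, mt-Nd6 and mt-Co1 the shares on the 3 diets overlapped in every pair. The share of mt-Co2 was higher in both NWD2 than in both AIN76A libraries, on 20 and 5 against 1 and 3 counts. In CPM, 13.2% of all genes tested were higher and 13.2% lower in both NWD2 than in both AIN76A libraries. For NWD1 against AIN76A 11.4% were higher in every library. With so few libraries many genes separate, and shares of a fixed total are not independent of each other. These shares were not tested.

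No member passed an adjusted p under 0.05 in any comparison, in the edgeR fit over all 14626 genes that passed the filter on low counts. Over all genes tested the share called was 0% in NWD1 against AIN76A, 0% in NWD2 against AIN76A and 0% in NWD2 against NWD1, while 500, 560 and 1154 genes had an unadjusted p under 0.05. DESeq2 called 1, 51 and 188 genes in the 3 comparisons and limma voom called 0 in each, with no mitochondrial gene among any of them. Of the 37 members 23 were tested: 11 protein-coding genes, both rRNAs and 10 tRNAs. A further 5, all tRNAs, had some counts but did not pass the filter, and 9 had none in any library. Among the 23 tested, the members with an unadjusted p under 0.05 were mt-Co3, in NWD1 against AIN76A and in NWD2 against NWD1, and mt-Tp, in NWD2 against NWD1.

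In NWD1 against AIN76A, the 11 protein-coding genes tested had a median log2 fold change of -0.14, with 3 above and 8 below 0, and all genes tested had a median of 0.01. The 8 protein-coding genes with at least 100 counts in every library had a median of -0.19 and a range of -0.68 to 0.08. The median over the 11 was 0.03 without NWD1 replicate 3, 0.01 without AIN76A replicate 1, -0.24 without NWD1 replicate 1 and -0.39 without NWD1 replicate 2, and within the 4 libraries that carry the i5 index N503 it was 0.01. No protein-coding gene or rRNA lay wholly above or below between the 2 diets. Of the 23 members tested 0 were higher in every NWD1 library than in every AIN76A library, against 11.4% of all genes tested, and 1, mt-Tn, was lower in every NWD1 library, against 8.61% of all genes. On plain shares mt-Tn was not lower in every NWD1 library. It rested on few counts, 20, 20 and 3 on NWD1 and 26 and 22 on AIN76A.

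In NWD2 against AIN76A, the 11 protein-coding genes had a median of 0.05, with 6 above and 5 below 0, and all genes tested had a median of -0.03. The 8 well-counted genes had a median of 0.00, between -0.15 and 0.25. The members higher in both NWD2 than in both AIN76A libraries were mt-Nd1, mt-Nd5 and mt-Co2, 3 of 23, against 13.2% of all genes tested. On plain shares of counts 0 of the 23 were higher in both NWD2 libraries, against 8.59% of all genes tested. The member lower in both was mt-Te, 1 of 23, against 13.2% of all genes, and it was also the member lower in both on plain shares. mt-Te rested on few counts, 13 and 11 on NWD2 and 14 and 8 on AIN76A. Leaving out 1 library gave medians over the 11 genes between -0.08, without NWD2 replicate 1, and 0.17, without AIN76A replicate 1. All NWD2 libraries carry the i5 index N504 and all AIN76A libraries N503, so no within-index value exists. A fit with an i5 term, whose estimate of the index rests on NWD1 replicate 3 as the only library of its diet with N504, gave a median of 0.70.

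In NWD2 against NWD1, the 11 protein-coding genes had a median of 0.25, with 10 above and 1 below 0, and all genes tested had a median of 0.05. The 8 well-counted genes were all above 0, between 0.07 and 0.58, with SEs of 0.31 to 0.35. The members higher in both NWD2 than in all 3 NWD1 libraries were mt-Nd1, mt-Co1, mt-Rnr1, mt-Rnr2, mt-Tm and mt-Tp. These are 6 of 23, or 26.1%, against 10.8% of all genes tested, and they come from the same 5 libraries, so they are not independent of each other. On plain shares of counts 0 of the 23 were higher in both NWD2 libraries, against 2.45% of all genes tested. Among the 6, mt-Tm rested on few counts, 47 and 39 on NWD2 and 11, 36 and 1 on NWD1. No member was lower in both NWD2 libraries, against 14.5% of all genes tested. The positive median depended on single libraries: over the protein-coding genes it was 0.06 without NWD1 replicate 3, 0.08 without NWD2 replicate 1 and 0.40 without NWD1 replicate 2. Within the 3 libraries with index N504, where NWD1 replicate 3 is the only NWD1 library, it was 0.70. With library size alone as the scaling the median of all genes moved by -0.24, and mt-Nd2, mt-Nd5, mt-Nd6 and mt-Cytb came out below 0.

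**Figure D2:**
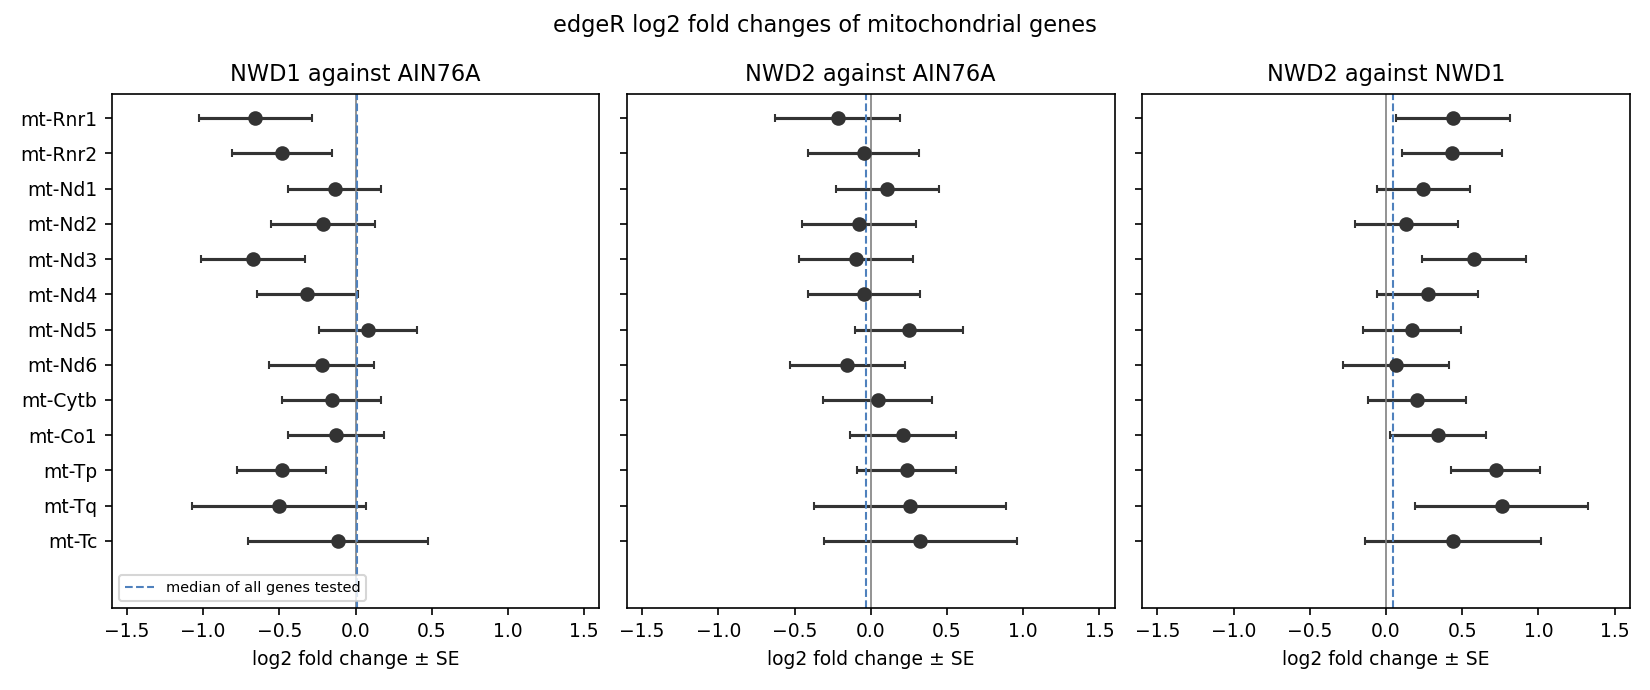
edgeR log2 fold changes with their standard errors for the rRNAs, the 8 well-counted protein-coding genes and the 3 most counted tRNAs, in each comparison of diets; the dashed line is the median of all 14626 genes tested. The points run from -0.68 to 0.08 for the protein-coding genes in NWD1 against AIN76A and from 0.07 to 0.58 in NWD2 against NWD1, and none passed the adjusted threshold.

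A stretch of the mitochondrial genome was almost without counts in these libraries. mt-Co2, a complex IV subunit that receives electrons from cytochrome c, had 20 and 5 counts on NWD2, 0, 23 and 0 on NWD1, and 1 and 3 on AIN76A. mt-Atp6, part of the proton channel of complex V, had 10 and 28 counts on NWD2, 8, 12 and 0 on NWD1, and 14 and 1 on AIN76A. mt-Atp8, also of complex V, and mt-Nd4l, of complex I, had 0 counts in all libraries, where 3 counts correspond to between 0.0385 and 0.214 CPM. These genes lie between mt-Co1 and mt-Nd4, which had at least 2933 CPM and at least 659 CPM in every library. Of the tRNA genes in the same stretch, mt-Ts1, mt-Td, mt-Tk and mt-Tg had 0 counts and mt-Tr had 6 counts in all libraries together. Low tRNA counts were not particular to this stretch. Outside it mt-Tw, mt-Ty and mt-Th also had 0 counts, and mt-Ts2 and mt-Tl2 had 5 each. Neighbouring genes overlap here, mt-Atp8 with mt-Atp6 by 43 bases and mt-Nd4l with mt-Nd4 by 7 bases, and how reads over such overlaps were counted is not given in the sources used here.

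Near-identical copies of most protein-coding genes of this stretch are annotated on nuclear chromosome 1. Identity was measured for the copies on chromosome 1 alone, and copies on other chromosomes are annotated too. Every 50-base window of each mitochondrial gene was looked up in all other transcripts of GENCODE M21 (GRCm38, a later build than the mm9 of the counts, so no coordinates are used). All windows of mt-Co2 (100%), 99.9% of those of mt-Co3, 99.5% of mt-Atp6, 98.8% of mt-Nd4l and 98.0% of mt-Nd3 were also found in another transcript. mt-Nd4 shared 62.2% and mt-Co1 51.1% of their windows. mt-Nd2 shared 8.19%, mt-Nd5 7.61% and mt-Rnr2 1.04%. mt-Nd1, mt-Nd6, mt-Cytb, mt-Rnr1, mt-Atp8 and all tRNA genes shared none, although a copy that is not an annotated transcript would not be seen this way. This limit bears on the tRNA genes and on mt-Atp8, which lies between mt-Co2 and mt-Atp6. The copies on chromosome 1 ran from within mt-Co1 to within mt-Nd4. The copy of mt-Co1 (Gm29216) aligned from base 1054 to its end, base 1545, and matched at 486 of 492 bases, with 6 substitutions that all lay before base 1067. The copy of mt-Nd4 (Gm28439) matched the first 876 of its 1378 bases at all letters. The copy of mt-Co2 (Gm28661) matched at 681 of 681 aligned bases, that of mt-Co3 (Gm28437) at 783 of 783 and that of mt-Nd4l (Gm10222) at 294 of 294. The copy of mt-Nd3 (Gm28438) matched at 344 of 345 aligned bases, with the substitution T3C, positions being counted from the first base of the mitochondrial gene.

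The first 40 bases of mt-Co3 and mt-Nd3 and of their chromosome 1 copies show how little separates them; capitals mark the base that differs, and the sequences are those of GENCODE M21.
mt-Co3: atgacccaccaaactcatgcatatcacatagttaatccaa
Gm28437: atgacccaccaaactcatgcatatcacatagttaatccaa
mt-Nd3: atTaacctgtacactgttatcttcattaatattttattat
Gm28438: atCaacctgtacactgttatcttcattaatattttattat

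mt-Co2, mt-Atp6 and mt-Nd4l, with 98.8% to 100% of windows shared, had 28 or fewer counts in any library. mt-Atp8 had 0 counts, and none of its windows occurred in another annotated transcript, though an unannotated copy would not be seen. mt-Nd3, with 98.0% shared, had 111 to 1079 counts a library, and mt-Co3, with 99.9% shared, had 5049 and 6584 counts in 2 libraries and 11 or fewer in the others. mt-Nd4 and mt-Co1, of which a part of the length is shared, were well counted. Whether reads that match both a mitochondrial gene and a copy were kept or dropped is not given in the sources used here, and the part of the copies in these low counts was not tested. Of the 7 chromosome 1 copies, Gm10222 is the only one whose Ensembl gene is a row of the counts table, with 4 and 7 counts on NWD2, 5, 18 and 1 on NWD1, and 3 and 2 on AIN76A.

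**Figure D3:**
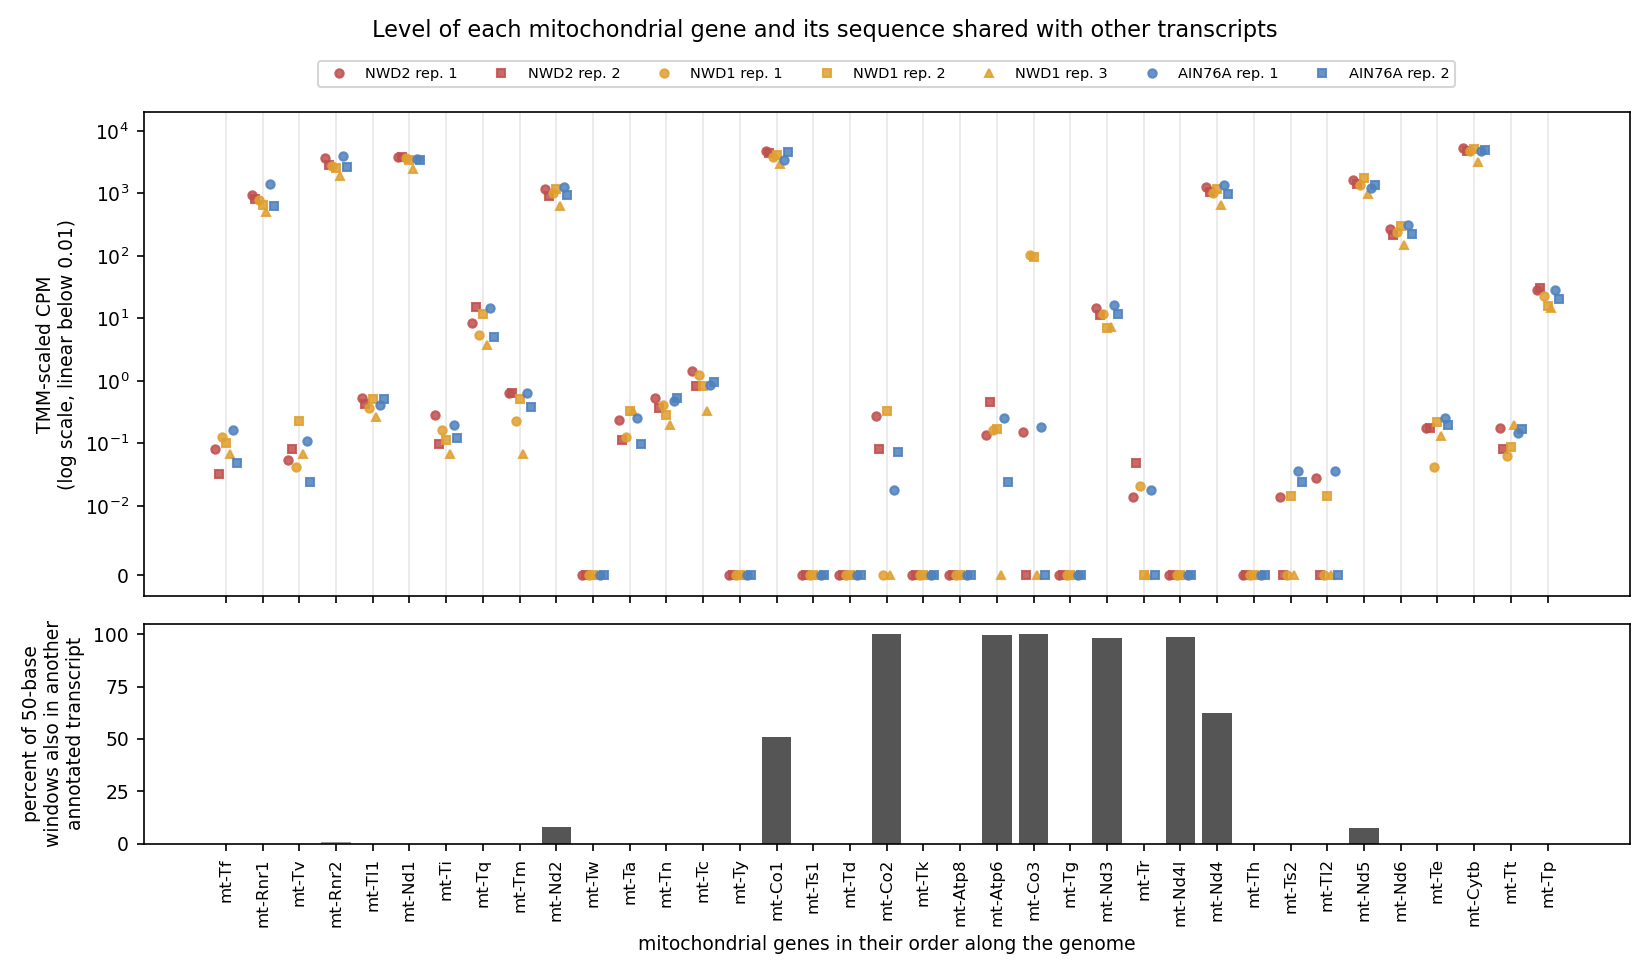
Upper panel: TMM-scaled CPM of each mitochondrial gene in its order along the genome, with 1 symbol a library, on a log scale that is linear below 0.01. Lower panel: percent of the 50-base windows of each gene that also occur in another annotated transcript. The genes from mt-Ts1 to mt-Nd4l sit near 0 except for mt-Nd3 and, in NWD1 replicates 1 and 2, mt-Co3.

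mt-Co3, the remaining mitochondrial subunit of complex IV, was counted in 2 NWD1 libraries and hardly at all elsewhere. It had 11 and 0 counts on NWD2, 5049, 6584 and 0 counts on NWD1, and 10 and 0 counts on AIN76A. On the CPM scale this was 0.151 and 0 on NWD2, 104, 94.7 and 0 on NWD1, and 0.180 and 0 on AIN76A. NWD1 replicates 1 and 2 were high, the other 5 libraries were at or near 0, and because NWD1 replicate 3 was at 0 the diets overlapped. Even in the 2 high libraries mt-Co3 was far below mt-Co1, with 267 and 250 TPM. The fitted log2 fold change was 9.35 (SE 2.70) in NWD1 against AIN76A, with an adjusted p of 0.878 (edgeR; 0.00951 before adjustment). It was -9.67 (SE 2.71) in NWD2 against NWD1, with adjusted p = 0.517, and -0.31 (SE 3.09) in NWD2 against AIN76A. These fitted values rest on libraries at 0 and are no bounds. With a term for the i5 index the value in NWD2 against NWD1 was 5.09 (SE 5.58), so its direction also depends on the setting. The call depended on the setting. Within index N503, which leaves out NWD1 replicate 3 and the NWD2 libraries, mt-Co3 was the 1 gene called in NWD1 against AIN76A (edgeR adjusted p = 0.00403). In the fit over the other 6 libraries without NWD1 replicate 3 the adjusted p was 0.0980 in NWD1 against AIN76A and 0.0783 in NWD2 against NWD1. On log2(TPM + 1), which lacks NWD1 replicate 3, limma gave adjusted p = 0.00105 in both. With no filter on low counts, edgeR gave adjusted p of 1.20e-56 and 5.46e-60. The 2 high libraries share the diet and the index N503, which both AIN76A libraries also carry, and they differ in labelled sex.

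A gene that the counts table's names give as Gm10925, the name of the annotated mt-Atp6 copy, was high in another single library. It had 2652 and 40 counts on NWD2, 28, 38 and 2 counts on NWD1, and 45 and 23 counts on AIN76A. That is 36.4 CPM in NWD2 replicate 1 and between 0.133 and 0.810 CPM in the other libraries. Its Ensembl ID differs from that of Gm10925 in GENCODE M21, so whether it is the same locus cannot be told from the names. The copies Gm13340 and Gm13341, which share sequence with mt-Co1 and mt-Co2, varied far less, from 1.39 to 2.97 and from 1.13 to 2.97 CPM. The cause of the high values of mt-Co3 in 2 libraries and of Gm10925 in 1 was not tested.

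**Figure D4:**
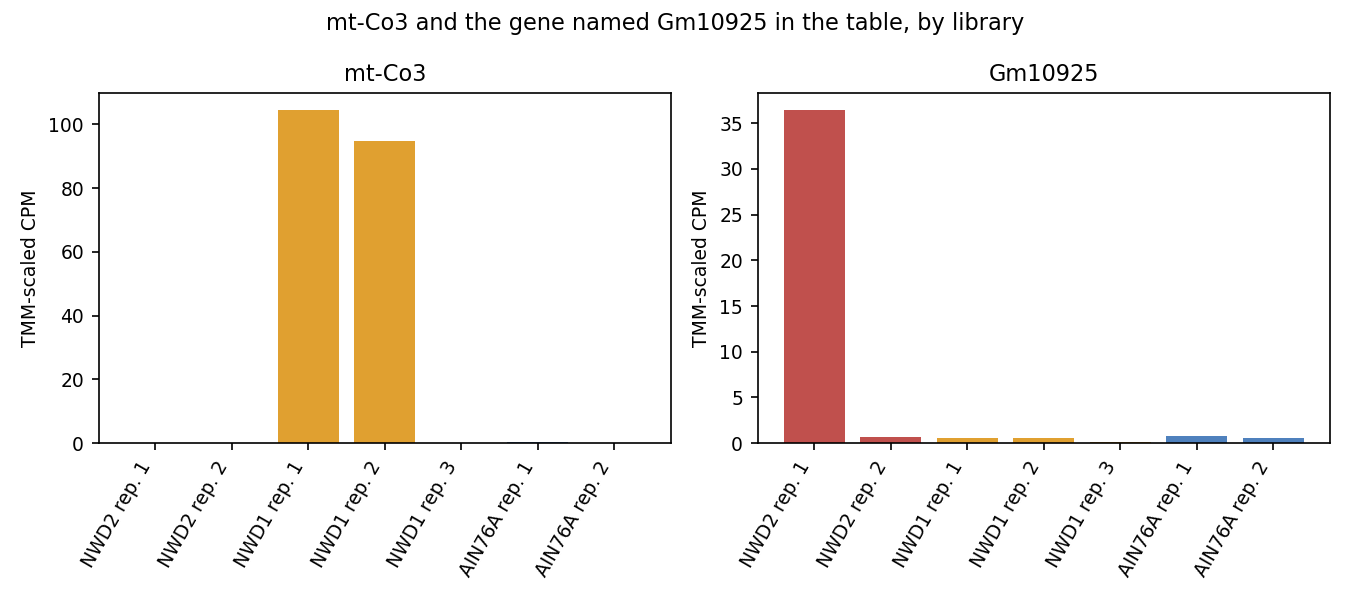
TMM-scaled CPM of mt-Co3 and of the gene named Gm10925 in each library, with 1 bar a library. mt-Co3 stood at 104 and 94.7 CPM in NWD1 replicates 1 and 2 and at or below 0.180 elsewhere; Gm10925 stood at 36.4 CPM in NWD2 replicate 1 and at or below 0.810 elsewhere.

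tRNA genes were sparsely counted: 7 of the 22 had 0 counts in all libraries, and 2 genes held most of the rest: mt-Tp, for proline, took 64.0% of all tRNA counts and mt-Tq, for glutamine, 27.2%. mt-Tc, for cysteine, took 2.68%. All 3 belong to the 8 tRNA genes encoded on the strand opposite to most genes. The preparation does not mark strand, so reads from these tRNAs and from RNA of the other strand cannot be told apart, and mt-Tq overlaps its neighbour mt-Ti by 3 bases. mt-Tp, which borders the control region of the genome, is shown with its GENCODE M21 sequence because it is the tRNA with an unadjusted p under 0.05.
mt-Tp: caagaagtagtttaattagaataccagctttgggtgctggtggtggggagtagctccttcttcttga
mt-Tp had 27.9 and 30.04 CPM on NWD2, 22.5, 15.7 and 14.5 CPM on NWD1, and 28.9 and 20.3 CPM on AIN76A. Both NWD2 libraries were above all NWD1 libraries, and the AIN76A libraries reached into both. In NWD2 against NWD1 its log2 fold change was 0.72 (SE 0.29), with an adjusted p of 0.592 (edgeR; 0.0348 before adjustment), and without NWD1 replicate 3 it was 0.60 (SE 0.34). mt-Tq had 8.44 and 15.2 CPM on NWD2, 5.38, 11.6 and 3.78 CPM on NWD1, and 14.8 and 4.96 CPM on AIN76A. Its libraries differed as much within a diet as between diets. mt-Tc had 1.44 and 0.821 CPM on NWD2, 1.26, 0.820 and 0.332 CPM on NWD1, and 0.864 and 0.943 CPM on AIN76A. Over the 10 tRNA genes tested the median log2 fold change was -0.49 in NWD1 against AIN76A, 0.14 in NWD2 against AIN76A and 0.48 in NWD2 against NWD1, with SEs up to 0.90.

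The nuclear genes that serve the mitochondrial genome also gave no call. A list of 90 such genes covered replication, transcription, RNA processing, translation factors, aminoacyl-tRNA synthetases and regulators of mitochondrial biogenesis, and all 90 were tested. In NWD1 against AIN76A 34 were above and 56 below 0, with a median of -0.11. In NWD2 against AIN76A 34 were above and 56 below, with a median of -0.05, and in NWD2 against NWD1 53 were above and 37 below, with a median of 0.08. Tfam, which packages the genome and starts its transcription, ranged from 37.0 to 54.9 CPM over the 7 libraries, and Polrmt, the mitochondrial RNA polymerase, from 29.8 to 52.9 CPM.

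Esrra, a nuclear receptor that activates respiratory genes, had 54.0 and 24.9 CPM on NWD2, 96.2, 69.7 and 92.1 CPM on NWD1, and 41.9 and 60.4 CPM on AIN76A. Esrra and the genes below were picked from the 90 for the smallest p in a comparison, so their differences follow in part from that choice. All NWD1 libraries were above all others for Esrra. Of all genes tested 11.4% were higher in every NWD1 than in every AIN76A library, and 14.5% were lower in both NWD2 than in all NWD1 libraries. Esrra had log2 fold changes of 0.75 (SE 0.37, edgeR adjusted p = 0.878) in NWD1 against AIN76A and -1.13 (SE 0.37, adjusted p = 0.533) in NWD2 against NWD1. Yars2, which charges the tyrosine tRNA, had 4.99 and 1.38 CPM on NWD2 and 9.39, 6.85 and 6.24 CPM on NWD1, a log2 fold change of -1.23 (SE 0.54). Ptcd2, a pentatricopeptide protein of mitochondrial RNA processing, had 61.6 and 57.0 CPM on NWD2 and 42.8, 43.4 and 38.6 CPM on NWD1, a log2 fold change of 0.51 (SE 0.23). Fars2, which charges the phenylalanine tRNA, had 62.8, 38.6 and 41.7 CPM on NWD1 and 81.2 and 63.2 CPM on AIN76A, a log2 fold change of -0.60 (SE 0.28). Slirp, listed as 1810035L17Rik in the tables, which stabilises mitochondrial mRNAs together with Lrpprc, had 43.0, 29.9 and 25.3 CPM on NWD1 and 63.9 and 35.3 CPM on AIN76A, a log2 fold change of -0.60 (SE 0.33). Lrpprc itself had 53.4 and 31.5 CPM on NWD2 and 43.9 and 74.8 CPM on AIN76A, a log2 fold change of -0.48 (SE 0.35). Sars2, which charges the serine tRNAs, gave -0.40 (SE 0.28) and Tsfm, a translation elongation factor, -0.50 (SE 0.37) in NWD2 against AIN76A. None of these passed the threshold, with edgeR adjusted p of 0.533 or more.

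Mitochondrial subunits of the respiratory complexes had median log2 fold changes nearer to 0 than their nuclear partners in both comparisons with AIN76A, and no gene of either group was called. Of 70 nuclear subunit genes of complexes I, III, IV and V, 2 were above and 68 below 0 in NWD1 against AIN76A, with a median log2 fold change of -0.52. In NWD2 against AIN76A 5 were above and 65 below, with a median of -0.26, and in NWD2 against NWD1 66 were above and 4 below, with a median of 0.28. For complex I the median in NWD1 against AIN76A was -0.22 over the 6 counted mitochondrial genes and -0.54 over 36 nuclear genes. In NWD2 against AIN76A it was -0.06 over the mitochondrial and -0.27 over the nuclear genes, and in NWD2 against NWD1 it was 0.21 over the mitochondrial and 0.27 over the nuclear genes. For complex IV in NWD2 against AIN76A, mt-Co1 had 0.21 (SE 0.35) and the 10 nuclear genes had a median of -0.22. The 4 complex II genes, which have no mitochondrial partner, had medians of -0.44, -0.07 and 0.41 in NWD1 against AIN76A, NWD2 against AIN76A and NWD2 against NWD1. The nuclear complex I genes summed to 9344 to 9765 CPM on NWD2, 6632 to 9489 CPM on NWD1 and 8148 to 13970 CPM on AIN76A, so the AIN76A libraries differed from each other by more than the diets' means. The difference between mitochondrial and nuclear subunits was not tested.

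**Figure D5:**
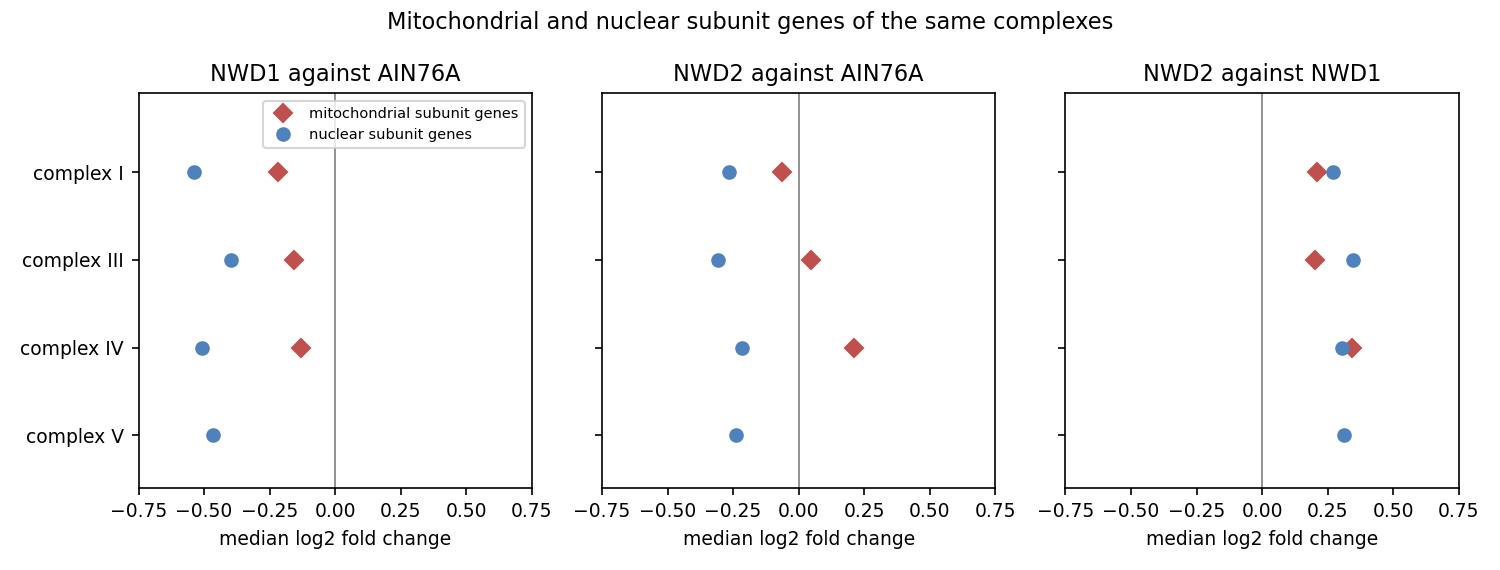
Median log2 fold change of the mitochondrial subunit genes with at least 100 counts in every library (diamonds) and of the nuclear subunit genes (circles) of each respiratory complex, in each comparison of diets; complex V has no mitochondrial gene with enough counts. The mitochondrial medians lie above the nuclear ones in both comparisons with AIN76A; for complex I in NWD1 against AIN76A they are -0.22 for the mitochondrial and -0.54 for the nuclear genes.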

How the data were processed

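Bulk RNA-seq of 7 libraries was used. Amplification used SMART-Seq v4 and library construction Nextera XT, per the labels' protocols; neither keeps the strand. The authors deposited counts, as whole numbers, for each Ensembl gene; the submitters' processing notes name STAR 2.4.2a, HTSeq 0.6.1, edgeR and the build mm9, without roles. The treatment of reads with several matches, the strand setting and the annotation are not given in the sources used here. The deposited TPM values, in columns that sum to 1000000, cover 6 samples; 1 column headed as NWD2 replicate 3 matches no sample title and was not used.

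Members and lists were chosen with earlier results of these data known. Counts were tested with edgeR 4.0.16 (R 4.3.3): quasi-likelihood F test, TMM scaling, filterByExpr, all 7 libraries, diet as the only term, 4 residual degrees of freedom, Benjamini-Hochberg adjustment over 14626 genes and an adjusted p threshold of 0.05. The test was also run on counts simulated from its own fitted model, which cannot show how well that model suits these libraries. Fold changes compare TMM-scaled values. The SE of an edgeR value is its absolute log2 fold change divided by the square root of its F statistic. The named genes are all mitochondrial mRNAs and rRNAs, the 3 tRNAs with most counts, tRNAs with an unadjusted p under 0.05, and, per comparison, the 3 nuclear list genes of smallest p with a mean log2 CPM of at least 1, with Bmi1, Epcam and Ptprc. Tfam, Polrmt, the nuclear copies and the other tRNAs were named after their values were seen. Of the deposited IDs, 32620 matched the table of current names. Alternatives covered scaling, filters, DESeq2 1.42.0, limma 3.58.1 on counts and on log2(TPM + 1) with a pseudocount of 1, terms for sex, i5 index and replicate number, fits within an index and each library left out; medians over genes with 100 or more counts in every library and overlaps on plain shares were added after the data were seen. Sequences were compared in windows of 50 bases with GENCODE M21 transcripts (GRCm38). An interval or floor covers counting error only.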

Additional observations from a re-analysis of the deposited data

How the results depend on the processing

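Every count of genes called was 0 in the fit reported. With no filter on low counts edgeR called 85 genes in NWD1 against AIN76A, 190 in NWD2 against AIN76A and 384 in NWD2 against NWD1, and DESeq2 called 1, 51 and 188. limma on log2(TPM + 1) called 1 gene, mt-Co3, in NWD1 against AIN76A and 1, mt-Co3, in NWD2 against NWD1. Within index N503 1 gene was called, and within index N504 1. With an i5 term 1 gene was called in NWD2 against AIN76A and 2 in NWD2 against NWD1, and with only the 2 diets compared 6 in NWD2 against AIN76A. Leaving out 1 library gave 0 calls in NWD1 against AIN76A and NWD2 against AIN76A and between 0 and 1 in NWD2 against NWD1. The median over the protein-coding genes moved to 0.21 in NWD1 against AIN76A and -0.14 in NWD2 against NWD1 on log2(TPM + 1), where NWD1 replicate 3 is missing. With the i5 term, which rests on NWD1 replicate 3, it moved to 0.70 in NWD2 against AIN76A and 0.71 in NWD2 against NWD1, and within index N504 it was 0.70. With mt-Co3 as the exception, no member was called under any alternative; its log2 fold changes where called were 9.37, 7.79 and 9.91 in NWD1 against AIN76A (no filter, TPM, index N503) and -9.65 and -7.79 in NWD2 against NWD1 (no filter, TPM).

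Some values, most of them within 1 SE of 0 in the fit reported, changed sign under other settings; the cause was not tested. On log2(TPM + 1), NWD1 against AIN76A gave 0.21 for mt-Nd1, 0.066 for mt-Tq, 0.20 for mt-Nd2, 0.35 for mt-Tc, 0.21 for mt-Co1, 0.086 for mt-Nd4, 0.21 for mt-Nd6 and 0.21 for mt-Cytb, NWD2 against NWD1 gave -0.12 for mt-Nd1, -0.30 for mt-Nd2, -0.11 for mt-Tc, -0.0021 for mt-Co1, -0.14 for mt-Nd4, -0.22 for mt-Nd5, -0.38 for mt-Nd6 and -0.19 for mt-Cytb, and NWD2 against AIN76A gave 0.00045 for mt-Co3. With the i5 term, NWD1 against AIN76A gave 0.025 for mt-Nd1, 0.0021 for mt-Nd2, 0.20 for mt-Tc, 0.0058 for mt-Co1, 0.018 for mt-Nd6 and 0.028 for mt-Cytb, NWD2 against AIN76A gave 0.27 for mt-Rnr1, 0.40 for mt-Rnr2, 0.70 for mt-Nd2, 15.03 for mt-Co3, 0.25 for mt-Nd3, 0.69 for mt-Nd4 and 0.73 for mt-Nd6, and NWD2 against NWD1 gave 5.09 for mt-Co3. Within index N503, NWD1 against AIN76A gave 0.019 for mt-Nd1, 0.20 for mt-Tc, 0.0048 for mt-Co1, 0.0067 for mt-Nd6 and 0.023 for mt-Cytb. The sex term gave -0.15 for mt-Nd5 in NWD1 against AIN76A. Library size alone shifted the median of all genes by 0.11, -0.12 and -0.24 in NWD1 against AIN76A, NWD2 against AIN76A and NWD2 against NWD1. It gave -0.023 for mt-Nd1 and -0.080 for mt-Cytb in NWD2 against AIN76A, and -0.082 for mt-Nd2, -0.055 for mt-Nd5, -0.15 for mt-Nd6 and -0.027 for mt-Cytb in NWD2 against NWD1.

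Same-numbered libraries of different diets had correlations of deviations between -0.0002 and 0.2605, and differently numbered ones between -0.2605 and 0.1663. On a diet with 2 libraries the deviations mirror each other, so these values cannot decide whether replicate numbers pair the libraries. With a replicate block 1 gene was called in NWD2 against AIN76A; NWD1 against AIN76A gave 0.025 for mt-Nd1, 0.025 for mt-Nd2, 0.16 for mt-Tc, 0.015 for mt-Co1, 0.042 for mt-Nd6 and 0.028 for mt-Cytb, and NWD2 against NWD1 gave -0.10 for mt-Nd2, -0.012 for mt-Nd5 and -0.19 for mt-Nd6.

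Leaving out each library in turn, values that changed sign ranged in NWD1 against AIN76A from -0.34 to 0.11 for mt-Co1, -0.30 to 0.029 for mt-Cytb, -0.25 to 0.025 for mt-Nd1, -0.42 to 0.013 for mt-Nd2, -0.15 to 0.28 for mt-Nd5, -0.48 to 0.047 for mt-Nd6, -1.12 to 0.021 for mt-Rnr1, -0.56 to 0.20 for mt-Tc and -1.10 to 0.48 for mt-Tq. In NWD2 against AIN76A they ranged from -5.33 to 5.08 for mt-Co3, -0.082 to 0.13 for mt-Cytb, -0.33 to 0.16 for mt-Nd2, -0.35 to 0.17 for mt-Nd3, -0.25 to 0.21 for mt-Nd4, -0.38 to 0.12 for mt-Nd6, -0.67 to 0.47 for mt-Rnr1, -0.31 to 0.29 for mt-Rnr2, -0.18 to 0.68 for mt-Tc and -0.31 to 1.25 for mt-Tq. In NWD2 against NWD1 they ranged from -0.11 to 0.33 for mt-Nd2, -0.023 to 0.40 for mt-Nd5, -0.17 to 0.32 for mt-Nd6 and -0.052 to 0.89 for mt-Tc. The median over the protein-coding genes ranged from -0.39 to 0.025 in NWD1 against AIN76A, -0.082 to 0.17 in NWD2 against AIN76A and 0.058 to 0.40 in NWD2 against NWD1. The mean mitochondrial share stayed between 1.61% and 2.33% on NWD2, 1.78% and 2.15% on NWD1 and 2.03% and 2.07% on AIN76A. The depth of NWD1 replicate 3 limits genes of few counts, since 3 counts there are 0.214 CPM. The plain shares behind the counts of members that do not overlap were added after the data were seen.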
